A study of Mus musculus with 12 samples.

Results

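Hippocampal RNA of mice given a small interfering RNA (siRNA) against Hdac4 was set directly against that of mice given an siRNA against Bdnf. The comparison used the 4 libraries labelled siHdac4 and the 4 labelled siBdnf, 8 of the 12 libraries of the series, with no control library in the fit. The mice were C57BL/6 and all received 10 µg of siRNA by the nose, 3 days before the tissue was taken. The other 4 libraries, labelled siScramble, came from mice given a scrambled siRNA in the same way, and their values are given beside the results without entering the test. Whether each library stands for a separate animal is not labelled, and p-values measure the spread between libraries only.

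Hdac4 encodes a class IIa histone deacetylase, a protein that moves between cytoplasm and nucleus with neuronal activity and represses MEF2 transcription factors. Bdnf encodes brain-derived neurotrophic factor, a secreted ligand that acts through the receptor tyrosine kinase TrkB on synapses and neuronal survival. An siRNA is loaded into an Argonaute complex and directs the cleavage of messenger RNA with a matching sequence. Direct comparison of the siRNA groups asks which transcripts differ between mice that received one active siRNA and mice that received the other.

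The values were FPKM, fragment counts scaled to transcript length and to the number of mapped fragments. Of 22306 loci in the joined tables, 18285 averaged 1 FPKM or more across these 8 libraries and were not at 0 throughout a group, and 11024 of these were protein-coding. Fold changes are given as log2 differences of FPKM + 1, siHdac4 minus siBdnf, so a positive value means higher in siHdac4. Each adjusted p is from limma with Benjamini-Hochberg adjustment over all 18285 loci, and a locus was called where it lay below 0.05. The tables carry no read totals. The worth of 1 read, taken from the steps between low values, ran from 0.828 in siBdnf library 4 to 1.19 in siHdac4 library 2, relative to siHdac4 library 1. A further 6 loci reached the mean but were listed at 0 in every library of a group and had no test. Among them was the protein-coding locus Gm10800, at 5185, 6891, 6047 and 7551 FPKM in siHdac4 and listed at 0 in siBdnf. In siScramble it stood at 1388, 3056, 9410 and 11467.5 FPKM. An antisense locus of the same name was also at 0 in siBdnf alone. Whether a listed 0 means that no reads were present cannot be told from FPKM values.

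Neither siRNA target differed between the groups beyond the spread of the libraries. Hdac4 stood at 34.0, 48.2, 39.6 and 42.3 FPKM in siHdac4 and at 35.9, 44.8, 39.1 and 40.2 FPKM in siBdnf. The groups overlapped, with means of 41.0 ± 5.93 and 39.998 ± 3.69 FPKM (SD, n = 4 each). The log2 difference was 0.029 with a 95% interval from -0.21 to 0.27 (adjusted p = 0.908, two-sided exact permutation p = 0.743). Bdnf stood at 5.94, 6.46, 5.38 and 5.15 FPKM in siHdac4 and at 5.19, 4.84, 5.29 and 5.43 FPKM in siBdnf. These groups overlapped too, at 5.73 ± 0.591 against 5.19 ± 0.255 FPKM (SD, n = 4 each). The log2 difference was 0.12 with a 95% interval from -0.065 to 0.30 (adjusted p = 0.431, two-sided exact permutation p = 0.20). With 4 libraries a side that permutation test cannot give a p below 0.0286. The labelled targets therefore gave no check of the group labels in these libraries.

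**Figure D1:**
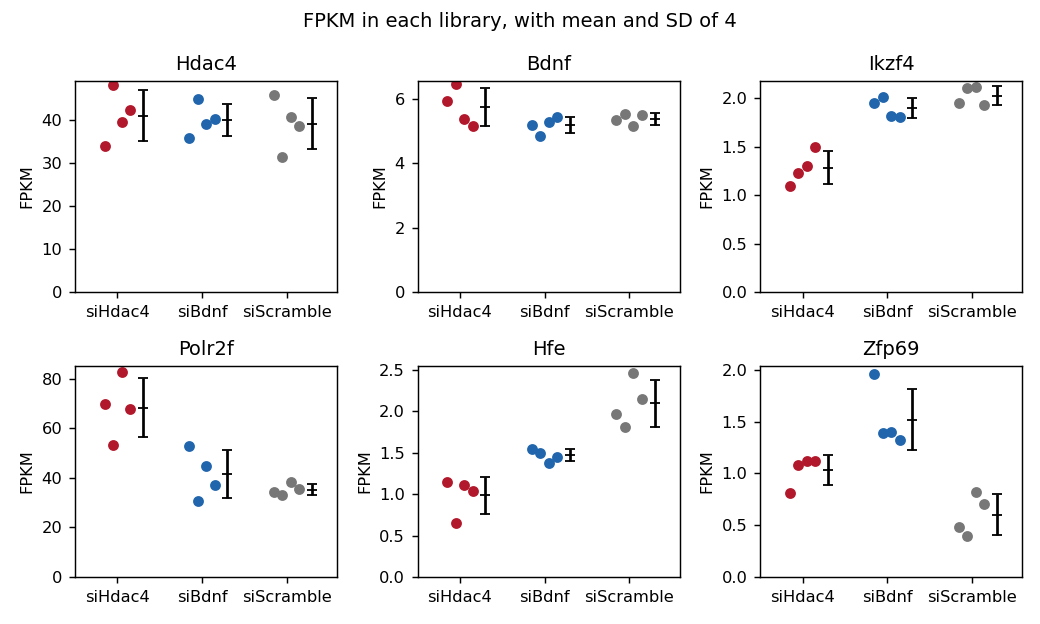
FPKM of Hdac4, Bdnf and 4 genes called earlier against siScramble (Ikzf4, Polr2f, Hfe and Zfp69) in each of the 12 libraries. Points are libraries, the bar beside each group is the mean with SD (n = 4), and the axes start at 0. The siHdac4 and siBdnf points overlap for Hdac4 and Bdnf.

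Between siHdac4 and siBdnf 168 loci were called, 0.919% of those tested. Of these 49 were higher in siHdac4 (0.268% of loci tested) and 119 were lower (0.651%). The higher calls included histone H4 genes, the RNA subunits of RNase P and RNase MRP, and Hn1. The lower calls included 59 intronic loci and the protein-coding genes Pop5, Tnrc6a, Npm1 and Ogt. The absolute log2 difference of the called loci had a median of 0.68 and ran from 0.22 to 2.48. At an unadjusted p below 0.05 there were 3949 loci (21.6%), 1351 higher (7.39%) and 2598 lower (14.2%), where 914 are expected without any difference. The groups did not overlap at 2377 loci (13%), 4.53% of all loci on the higher and 8.47% on the lower side, which included all 168 called loci. The median log2 difference of all loci was -0.028, and 43.0% were above 0.

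The number of calls changed with the library left out, in fits that each had 1 library fewer. Without siHdac4 library 1, 2, 3 or 4 there were 8, 8, 6 and 1130 calls. Without siBdnf library 1, 2, 3 or 4 there were 47, 3, 24 and 6 calls. With all 12 libraries sharing the estimate of spread, 1 locus was called, Ssxb2 (log2 difference -0.92, adjusted p = 0.0316).

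The siScramble libraries did not form a group at the called loci. Each library was placed on a scale on which 0 is the siBdnf mean and 1 the siHdac4 mean of a locus. The median position was 1.20 for siScramble library 1, 0.71 for library 2, 0.12 for library 3 and 0.048 for library 4. Library 1 was nearer the siHdac4 mean at 160 of the 168 loci (95.2%), library 2 at 110 (65.5%), library 3 at 33 (19.6%) and library 4 at 20 (11.9%). At the 14336 loci with an unadjusted p of 0.05 or more, the shares were 62.9%, 50.4%, 41.5% and 40.8%. The range among the siScramble libraries exceeded the difference between siHdac4 and siBdnf at 137 of the 168 called loci and at 13891 of the 14336 others. On the log2 scale the siScramble libraries had a median SD of 0.444 at the called loci, the siHdac4 libraries 0.151 and the siBdnf libraries 0.139. At the 14336 others these medians were 0.161, 0.131 and 0.120. A small spread within siHdac4 and siBdnf was part of what made a locus pass, so these SDs are given as a description. Libraries of the scrambled siRNA thus lay on both sides of the difference, and its dependence on the siRNA given and on other differences between libraries cannot be told apart here.

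**Figure D2:**
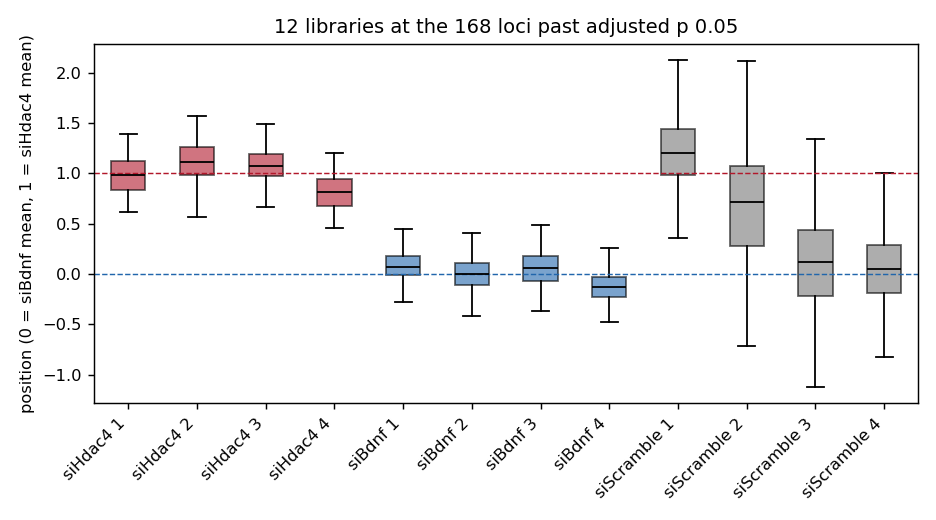
Position of each of the 12 libraries at the 168 called loci, where 0 is the siBdnf mean and 1 the siHdac4 mean of log2(FPKM + 1). Boxes give the median and quartiles over loci, whiskers reach the last value within 1.5 box lengths, and the siHdac4 and siBdnf boxes are fixed apart by the choice of loci. The siScramble medians run from 0.048 to 1.20.

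The locus of smallest p was a replication-dependent histone gene. Hist1h4f, on chromosome 13, encodes histone H4, a core component of the nucleosome. Messenger RNAs of such genes end in a conserved stem-loop in place of a poly-A tail, and the libraries were selected for poly-A. The stem-loops of the 5 histone genes called are shown because they mark this class of transcript. They were read from the GENCODE M21 transcripts (GRCm38), written 5′ to 3′ as DNA, with the stem-loop in capitals and 5 bases on each side.
Hist1h4f: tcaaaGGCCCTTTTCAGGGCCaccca
Hist1h4n: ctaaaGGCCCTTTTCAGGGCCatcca
Hist1h4c: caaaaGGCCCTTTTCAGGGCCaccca
Hist4h4: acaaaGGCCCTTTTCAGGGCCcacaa
Hist1h2ac: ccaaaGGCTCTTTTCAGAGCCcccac

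The letters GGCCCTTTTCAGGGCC and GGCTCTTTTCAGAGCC, taken from these 5 genes, were searched on the transcript strand of the longest transcript of 21877 protein-coding genes. Either occurred in 34 of them (0.155%), 32 of which were named as histone genes. In the models of Hist1h4f and Hist1h4n the stem-loop ended at base 358 of 391 and base 399 of 430. The models of the other genes shown ran on well past it. It ended at base 366 of 820 in Hist1h4c, 418 of 2863 in Hist4h4 and 472 of 2482 in Hist1h2ac. A match describes letters in a transcript model and does not show where the sequenced RNA ended.

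Hist1h4f stood at 34.2, 31.0, 30.0 and 27.4 FPKM in siHdac4 and at 12.5, 13.7, 12.2 and 11.98 FPKM in siBdnf. In siScramble it stood at 37.6 FPKM in library 1 and at 9.93, 10.5 and 10.98 FPKM in the others. The lowest siHdac4 library was well above the highest siBdnf library, and siScramble library 1 sat with siHdac4. The log2 difference was 1.22 (SE 0.074, adjusted p = 0.00147), and the call held without any one of the 8 libraries.

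Hist1h4n, a second H4 gene of the same cluster, stood at 9.29, 9.83, 10.2 and 8.78 FPKM in siHdac4 and at 4.62, 4.66, 5.07 and 3.32 FPKM in siBdnf. The groups did not overlap, and the log2 difference was 0.97 (adjusted p = 0.0249). Hist1h4c, at 4.35, 8.42, 6.99 and 4.55 against 2.54, 2.44, 2.02 and 1.59 FPKM, had a log2 difference of 1.14 (adjusted p = 0.0425). In siScramble Hist1h4c stood at 8.11 FPKM in library 1 and between 2.23 and 2.72 FPKM in the other 3. Hist4h4 (log2 difference 0.52) and the H2A gene Hist1h2ac (0.47) were called at levels under 2 FPKM in every siHdac4 and siBdnf library.

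The other histone genes were less uniform. Of 25 clustered histone genes in the tables, a list drawn up after these values had been seen, 22 were tested. Their median log2 difference was 0.38, with 17 above 0 and 5 below. The median deviation of these genes from the mean of the 8 libraries was 0.15, -0.044, 0.24 and 0.27 in siHdac4 libraries 1 to 4. In siBdnf libraries 1 to 4 it was -0.036, -0.094, -0.14 and -0.18, so siHdac4 library 2 lay within the siBdnf range. The 5 genes shown above were called higher and none lower, and 12 were higher and 0 lower at an unadjusted p below 0.05. Of all loci tested, 0.268% were called higher, and 7.39% were higher and 14.2% lower at that p. Hist1h4h had a log2 difference of 0.77 (adjusted p = 0.0591), while Hist1h4d stood at -0.041 and Hist2h4 at -0.087. Histone transcripts are short and near-identical between copies, so the counting of their fragments may have split or merged genes. A correction for transcript length and GC content was run at protein-coding loci only, which left out Hist1h4f, Hist1h4c and Hist4h4. The median of the 17 genes it covered was 0.21, which is not comparable with that of the 22 tested. Either stem-loop was found in 13 of the 22, among them the 5 from which its letters were taken.

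Rmrp, Rpph1 and Scarna2, small noncoding RNAs that are not polyadenylated like messenger RNAs, were called higher in siHdac4. The catalytic RNA of RNase MRP, Rmrp, and that of RNase P, Rpph1, act in the processing of ribosomal and transfer RNA precursors. They were named after their values were seen, since they are the called loci of the deposited classes misc_RNA and snoRNA. The last 40 bases of the Rpph1 transcript in GENCODE M21 (GRCm38, chromosome 14, minus strand) are shown as an example of an RNA with no poly-A signal AATAAA in its last 50 bases.
Rpph1: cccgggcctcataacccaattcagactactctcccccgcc

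That signal lay in the last 50 bases of 59.2% of the 21877 protein-coding transcripts searched on the transcript strand, and in neither Rmrp nor Rpph1. Rmrp stood at 733, 1242, 821 and 417 FPKM in siHdac4 and at 223, 205, 226 and 196 FPKM in siBdnf. In siScramble library 1 it reached 1307 FPKM, above every siHdac4 library, and in libraries 2 to 4 it stood at 178, 104 and 165 FPKM. The groups did not overlap, and the log2 difference was 1.81 (SE 0.28, adjusted p = 0.0363).

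Rpph1 stood at 1923, 3445, 2785 and 1369.8 FPKM in siHdac4 and at 738, 665, 784 and 610.0 FPKM in siBdnf. Its siScramble values were 3471 FPKM in library 1 and 886, 510.3 and 684 FPKM in the others. As for Rmrp, siHdac4 library 2 was the highest and library 4 the lowest of the siHdac4 libraries, and the log2 difference was 1.69 (SE 0.26, adjusted p = 0.0378). FPKM divides by transcript length, so levels of such short RNAs are not comparable with those of messenger RNAs.

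Scarna2, a small Cajal body RNA that guides the modification of spliceosomal RNA, stood at 19.6, 18.6, 19.5 and 14.9 against 11.9, 10.8, 10.4 and 8.94 FPKM (log2 difference 0.73, adjusted p = 0.0337). Of 44 tested loci of the classes misc_RNA, snoRNA and snRNA, these 3 were called higher and none lower. At an unadjusted p below 0.05, 14 of the 44 were higher and 4 lower, against 7.39% and 14.2% of all loci. Their median log2 difference was 0.20, with 26 above 0 and 18 below. The median deviation of the class from the mean of the 8 libraries was -0.018, 0.36, 0.17 and -0.064 in siHdac4 libraries 1 to 4. In siBdnf libraries 1 to 4 it was -0.22, -0.040, -0.060 and -0.046, so the groups overlapped as a class. Others of the class with large differences that were not called included Scarna6 (log2 difference 1.95, adjusted p = 0.0614), Snord17 (1.27, adjusted p = 0.104) and the U12 spliceosomal RNA Rnu12 (1.76, adjusted p = 0.107). These were named after their values were seen and were taken from the higher side alone. Scarna6 stood at 264, 477, 288 and 95.3 FPKM in siHdac4, at 60.0, 49.1, 88.4 and 56.2 FPKM in siBdnf and at 351 FPKM in siScramble library 1.

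Pop5, a protein subunit shared by RNase P and RNase MRP, lay in the opposite direction. It stood at 112, 111, 104 and 112 FPKM in siHdac4 and at 146, 152, 146 and 144 FPKM in siBdnf. The groups were apart, and the log2 difference was -0.42 (SE 0.043, adjusted p = 0.0200). The siScramble libraries 1 and 2, at 95.7 and 74.1 FPKM, lay below siHdac4, and libraries 3 and 4 lay at 152 and 126 FPKM.

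Of the protein-coding loci called higher, the 3 at the highest level in siHdac4 each held a small RNA gene, which was noticed after their values were seen. The locus named Chd3,Gm22442 joins Chd3, a chromatin remodeller of the NuRD deacetylase complex, with Gm22442, a small Cajal body RNA gene inside it at chr11:69350518-69350661 in GENCODE M21 (GRCm38). It stood at 891, 819, 1079 and 844 FPKM in siHdac4 and at 487, 443, 446 and 402 FPKM in siBdnf. The siScramble libraries stood at 1080.5, 973, 572 and 549 FPKM, library 1 just above the siHdac4 range and library 2 within it. The log2 difference was 1.02 (SE 0.10, adjusted p = 0.0193), and the tables do not divide it between the 2 genes.

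Trrap, a scaffold of histone acetyltransferase complexes, stood at 2526, 2979.8, 2399.9 and 1578.5 FPKM in siHdac4. In siBdnf it stood at 1023, 903, 1308 and 942 FPKM, a log2 difference of 1.16 (adjusted p = 0.0444). A small nucleolar RNA gene, Gm23995, lies inside this locus. Ncapd2, a condensin subunit whose locus holds Scarna10, had a log2 difference of 1.00 (adjusted p = 0.0378). A snoRNA or scaRNA gene lay inside 3 of the 23 protein-coding loci called higher, inside 3 of the 37 called lower, and inside 426 of all 11024 (3.86%). The median log2 difference of those 426 was 0.0012, against -0.0016 for the other 10598 protein-coding loci.

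Among the remaining loci of smallest p, Hn1, a small protein that associates with microtubules, was higher in siHdac4. It stood at 37.8, 40.3, 40.6 and 34.4 FPKM in siHdac4 and at 20.7, 21.1, 21.1 and 20.0 FPKM in siBdnf. The siScramble libraries stood at 33.4, 23.4, 26.1 and 20.9 FPKM, the first 3 between the groups and library 4 within the siBdnf range. The log2 difference was 0.85 (SE 0.06, adjusted p = 0.00246), and the call held without any one library.

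Med13l, a subunit of the kinase module of the Mediator complex, stood at 34.3, 35.2, 34.7 and 34.3 against 26.6, 23.2, 27.2 and 24.6 FPKM (log2 difference 0.43, adjusted p = 0.0301). Mien1, a small membrane-associated protein linked to cell migration, stood at 23.7, 26.2, 24.1 and 21.2 against 14.96, 16.4, 17.3 and 15.7 FPKM (0.53, adjusted p = 0.0337). The pseudogene Rpl10a-ps1 was higher (0.47, adjusted p = 0.0301), whereas Rpl10a itself differed by -0.12 (adjusted p = 0.391). Copies of that kind share sequence with their parent gene, so the division of fragments between them is uncertain. Unnamed long noncoding loci at chr19:5086944-5087530 (log2 difference 0.77) and chr6:128799291-128799623 (1.01) completed the 10 loci of smallest p that were higher.

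On the lower side, Ssxb2, an X-linked member of the SSX family, stood at 0.570, 0.437, 0.601 and 0.646 FPKM in siHdac4 and at 1.51, 2.19, 2.17 and 1.98 FPKM in siBdnf. The groups were apart at a low level, with siScramble between 0.666 and 1.18 FPKM. Its log2 difference was -0.92 (adjusted p = 0.0200). Cep131, a protein of centriolar satellites, stood at 13.6, 11.9, 14.0 and 12.9 against 20.6, 20.5, 19.2 and 18.1 FPKM (-0.55, adjusted p = 0.0301). Caml, a membrane protein that takes part in the insertion of tail-anchored proteins, stood at 30.3, 31.1, 32.7 and 32.5 against 39.2, 40.1, 40.8 and 41.2 FPKM (-0.34, adjusted p = 0.0301).

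Further protein-coding genes called lower are named here after their values were seen. Npm1, a nucleolar chaperone of ribosome assembly, stood at 145, 137, 132 and 148 against 186, 182, 172 and 192 FPKM (-0.38, adjusted p = 0.0337). Ogt, the enzyme that adds O-linked N-acetylglucosamine to proteins, stood at 172, 138, 156 and 215 against 284, 312, 262 and 278 FPKM (-0.75, adjusted p = 0.0408). Tsc2, an inhibitor of the mTORC1 pathway, stood at 115, 72.2, 104 and 115 against 164, 178, 181 and 200.5 FPKM (-0.85, adjusted p = 0.0408). For Ogt, siScramble libraries 1 and 2 lay at 139 and 127 FPKM and libraries 3 and 4 at 301 and 322 FPKM, one pair on each side of the difference.

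Apart from Hist1h4f, Hn1 and the intronic locus of Pde4b, each of the 10 higher and 10 lower loci of smallest p lost its call in at least 3 of the 8 fits that left out 1 library. Their highest adjusted p in those fits ran from 0.0624 for Chd3,Gm22442 to 0.107 for Mien1. Of the calls in gene groups described further below, that of Tnrc6a held in 2 of the 8 fits. Those of Ndufb11, Atp5g1, Rpl21 and Dnajb4 held in 1 each.

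**Figure D3:**
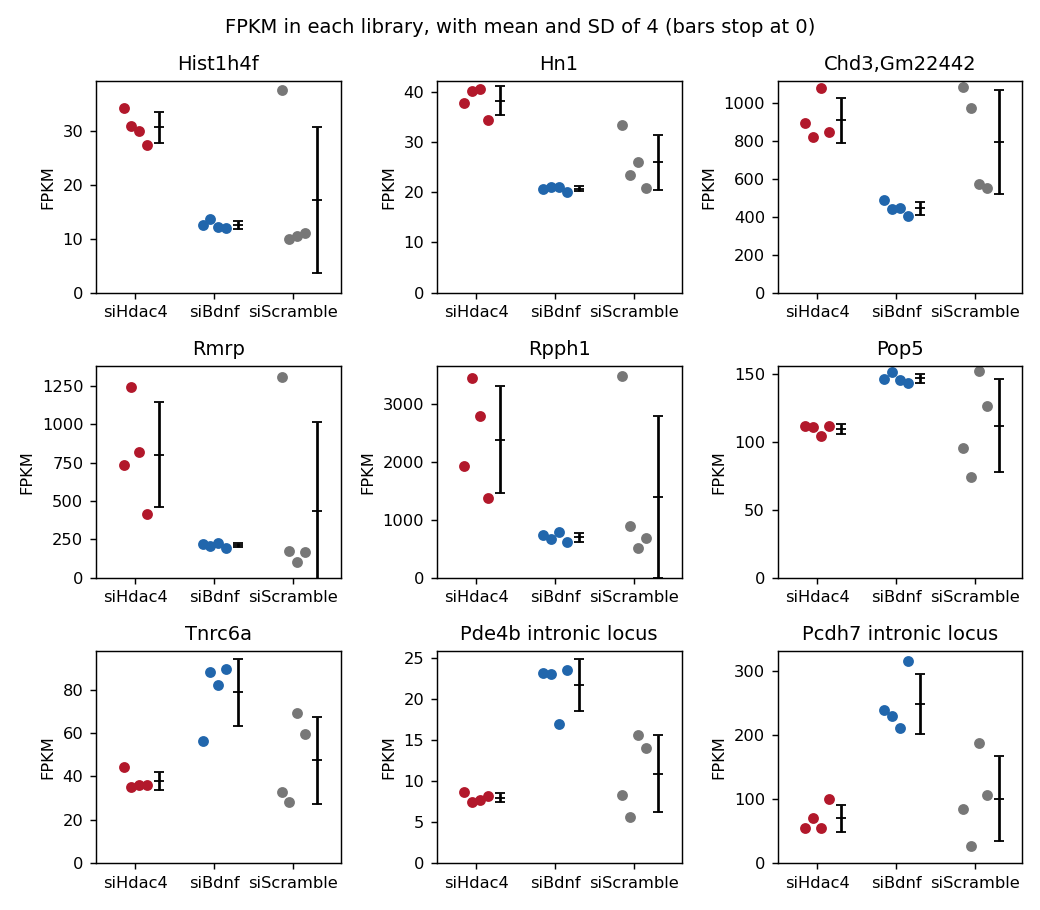
FPKM of 9 called loci in each of the 12 libraries, with the mean and SD of each group of 4 and axes starting at 0. Hist1h4f, Hn1, Chd3,Gm22442, Rmrp and Rpph1 are higher and Pop5, Tnrc6a and the intronic loci of Pde4b and Pcdh7 lower in siHdac4. The first siScramble library reaches 37.6 FPKM for Hist1h4f and 1307 FPKM for Rmrp.

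Intronic loci, stretches of signal inside introns that the deposited tables list apart from the gene itself, made up 59 of the 119 lower calls. Such signal comes from unspliced or partly spliced RNA, from internal priming or from separate transcripts, which FPKM tables do not distinguish. Of 3295 intronic loci tested, these 59 were called lower and 3 higher. At an unadjusted p below 0.05, 1000 were lower (30.3%) and 44 higher, and the median log2 difference was -0.15. Among 11024 protein-coding loci, 37 were called lower and 23 higher, and the median was -0.0015. The median deviation of the intronic class from the mean of the 8 libraries lay between -0.032 and -0.13 in the siHdac4 libraries and between 0.032 and 0.18 in the siBdnf libraries. In siScramble libraries 1 to 4 it was -0.16, -0.037, 0.045 and 0.088.

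**Figure D4:**
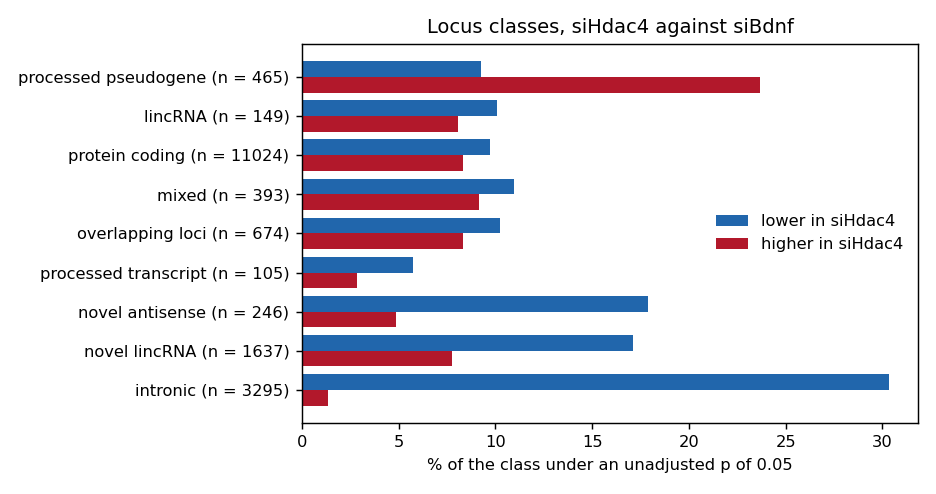
Share of each deposited locus class with at least 100 tested loci that lay under an unadjusted p of 0.05, lower or higher in siHdac4 than in siBdnf. Bars start at 0. Intronic loci reach 30.3% on the lower side, and processed pseudogenes 23.7% on the higher side.

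The intronic locus of smallest p lay in Pde4b, a phosphodiesterase that degrades cyclic AMP. It stood at 8.65, 7.40, 7.63 and 8.18 FPKM in siHdac4 and at 23.2, 23.0, 16.9 and 23.6 FPKM in siBdnf, a log2 difference of -1.33 (SE 0.11, adjusted p = 0.00505). Pde4b held 23 tested intronic loci, 22 of them below 0. The Pde4b gene itself stood at 46.6 ± 3.78 against 53.9 ± 7.77 FPKM (SD, n = 4 each), a log2 difference of -0.20 (adjusted p = 0.311).

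Pcdh7, a protocadherin of neuronal adhesion, showed the same separation of intron and gene. Its called intronic locus stood at 54.4, 70.8, 55.4 and 100.1 FPKM in siHdac4 and at 239, 230.2, 211 and 317 FPKM in siBdnf (-1.84, adjusted p = 0.0200). The gene stood at 28.1 ± 1.75 against 27.9 ± 2.21 FPKM (SD, n = 4 each), a log2 difference of 0.013. In Cadm2, a synaptic adhesion molecule, 34 of 41 intronic loci were below 0 and 2 were called lower. The larger of these had a log2 difference of -0.62, and the gene itself -0.11 (adjusted p = 0.205).

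Intronic loci of Esco1, a cohesin acetyltransferase (-0.67), and of Rbm41, an RNA-binding protein (-0.92), were also among the 10 lower loci of smallest p. Mkl2, a coactivator of serum response factor, held 1 intronic locus called lower (-1.13, adjusted p = 0.0273) and 1 called higher (1.19, adjusted p = 0.0301). The gene lay between them at 30.5 ± 2.42 against 33.8 ± 2.92 FPKM (SD, n = 4 each), a log2 difference of -0.14. The strand of the loci is not part of the tables, so the opposite loci could not be assigned to the gene's own strand.

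The 59 lower intronic loci fell in 54 host symbols. Genes of synaptic adhesion were among them, named after their values were seen: Nrxn3 (-0.65 and -1.13), Nlgn1 (-0.47), Opcml (-1.07 and -1.03) and Dscam (-1.62). The host gene was measured for 43 symbols, and none of these was called at the gene level, with 12 at an unadjusted p below 0.05. The median log2 difference was -0.084 for these hosts, against -0.78 for the lower intronic loci, whose size partly follows from their selection as lower calls. Without that selection, the median was -0.038 for all 738 hosts measured and -0.15 for all intronic loci tested. Taken per locus, the span of the host gene had a median of 333 kb at the lower intronic loci and 369.7 kb at all intronic loci of known span. A host with several intronic loci counts several times in these medians.

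Processed pseudogenes lay the other way, with 110 of 465 higher and 43 lower at an unadjusted p below 0.05 and a median log2 difference of 0.095. Of the class, 3 were called higher and 4 lower. The median deviations of the class ran from -0.016 to 0.12 in siHdac4 and from -0.065 to -0.0048 in siBdnf.

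Within protein-coding loci the log2 difference fell with transcript length. Spearman's rho across 10340 loci of known length was -0.14, a description across genes that share libraries. The median log2 difference was 0.049 among the shortest 1034 transcripts and -0.037 among the longest 1034. With GC content rho was 0.075. By library, rho of length with the deviation of a locus ran from -0.19 to -0.080 in siHdac4, and was -0.080, 0.045, 0.040 and 0.12 in siBdnf libraries 1 to 4. In siScramble it was -0.10, -0.0029, 0.17 and 0.18. The part of transcript length in the gene groups described next was not tested beyond the corrected medians given.

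Genes of mitochondrial respiration had the highest median of the 18 gene groups plotted, which leave out the histone genes and small RNAs above. Oxidative phosphorylation genes encode subunits of the respiratory chain and ATP synthase, and 48 of 66 tested were above 0, with a median of 0.17 (all loci -0.028). At an unadjusted p below 0.05, 27 were higher and 1 lower, and 2 were called higher and none lower. Of all protein-coding loci, 8.31% were higher and 9.71% lower at that p, and 0.209% were called higher and 0.336% lower. Those shares are the background for each gene group below. Ndufb11, a complex I subunit, stood at 41.5, 50.7, 51.3 and 33.2 against 22.1, 24.0, 28.4 and 20.6 FPKM (0.86, adjusted p = 0.0438). Atp5g1, the ring-forming c subunit of ATP synthase, stood at 28.8, 44.4, 36.1 and 28.2 against 21.2, 19.9, 18.5 and 19.3 FPKM (0.75, adjusted p = 0.0464). Both were at their siHdac4 level in siScramble library 1, at 48.0 and 39.5 FPKM, and near their siBdnf level in libraries 3 and 4. Atp5d, another ATP synthase subunit, differed by 0.39 (adjusted p = 0.0581). The median transcript length of the list was 1094 bases, and its median after length and GC correction was 0.13.

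Cytosolic ribosomal protein genes had a median of 0.14, with 50 of 66 above 0, 18 higher and 3 lower at an unadjusted p below 0.05. The corrected median was 0.095. The single call went against the group. Rpl21, a protein of the large subunit, stood at 62.0, 67.6, 65.6 and 65.2 against 81.4, 80.3, 79.5 and 85.5 FPKM (-0.32, adjusted p = 0.0337). The small nucleolar RNA genes Gm25091 and Gm23202 lie inside the Rpl21 locus, and its FPKM values are not divided between them. Rpsa, of the small subunit, stood at 123, 141, 123 and 97.8 against 88.0, 83.3, 79.4 and 75.6 FPKM without being called (0.56, adjusted p = 0.0512). Rps2, also of the small subunit, differed by 0.44 (adjusted p = 0.0614). Mitochondrial ribosomal proteins (median 0.065, 44 of 62 above 0), proteasome subunits (0.063, 20 of 28) and RNA polymerase subunits (0.10, 21 of 27) had no member called by limma. At an unadjusted p below 0.05, 5, 7 and 7 of their genes were higher and 4, 1 and 1 lower. The genes of smallest p were Mrps33 (-0.36), Mrpl41 (-0.17) and Mrpl46 (0.24) of the mitochondrial ribosome, with adjusted p from 0.0614 to 0.128. In the proteasome they were Psmd13 (-0.23), Psmb5 (0.56) and Psmb6 (0.36), with adjusted p from 0.0760 to 0.105. Among polymerase subunits, Polr2e (0.32, adjusted p = 0.0620) and Polr2j (0.43, adjusted p = 0.0681) came before Polr2f, described below.

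The small RNA silencing machinery, which loads and executes siRNAs, held 1 called gene. Of 17 genes tested 13 were below 0 in siHdac4 relative to siBdnf, with a median of -0.11 (-0.076 after correction). Tnrc6a, the GW182 protein that binds Argonaute and recruits deadenylases, was called lower. It stood at 44.2, 35.3, 36.0 and 36.3 FPKM in siHdac4 and at 56.3, 88.2, 82.1 and 89.5 FPKM in siBdnf (-1.02, SE 0.15, adjusted p = 0.0337). The siScramble libraries lay at 32.9, 28.2, 69.2 and 59.4 FPKM, on both sides. Xpo5, the exporter of microRNA precursors (-0.17, adjusted p = 0.113), and Tnrc6c, a paralog of Tnrc6a (-0.21, adjusted p = 0.182), were not called.

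The lists built around Hdac4 and Bdnf held no gene called by limma, a count near the background of 0.919% of all loci for lists of this size. Class IIa deacetylases and MEF2 factors had a median of 0.020 over 17 genes, with 2 higher and 1 lower at an unadjusted p below 0.05. Hdac5, another class IIa deacetylase, stood at 44.7, 41.8, 45.4 and 62.4 against 63.5, 59.4, 59.6 and 65.1 FPKM (-0.36, adjusted p = 0.126). siHdac4 library 4 overlapped the siBdnf range. Camk1, a kinase that phosphorylates class IIa deacetylases, differed by 0.25 (adjusted p = 0.0850), and Ywhab, a 14-3-3 protein, by 0.13 (adjusted p = 0.223). Among 24 class I deacetylases and corepressors the median was -0.011, with 1 higher and 3 lower at an unadjusted p below 0.05, and Chd4, another remodeller of the NuRD complex, differed by -0.19 (adjusted p = 0.0727). Rbbp4, a histone-binding subunit of the same complex, differed by 0.15 (adjusted p = 0.149), and the corepressor Rcor1 by -0.34 (adjusted p = 0.161).

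Neurotrophins, their receptors and processing enzymes had a median of 0.061 over 16 genes, with none under an unadjusted p of 0.05. The smallest p belonged to Furin, a protease that cleaves neurotrophin precursors (0.63, adjusted p = 0.234), followed by the convertase Pcsk2 (-0.15) and the sorting receptor Sorcs1 (0.13). TrkB signalling genes had a median of 0.021 over 33 genes, 3 of them higher and 0 lower at an unadjusted p below 0.05. Hras, a GTPase of that pathway, stood at 42.7 ± 3.98 against 35.4 ± 2.14 FPKM (SD, n = 4 each; adjusted p = 0.102). The kinases Map2k2 and Akt2 differed by 0.21 (adjusted p = 0.175) and 0.19 (adjusted p = 0.209). Activity-regulated genes had a median of -0.0035 over 34 genes, 2 higher and 1 lower at an unadjusted p below 0.05, with Jun at -0.22 (adjusted p = 0.0714) Btg2 at 0.35 (adjusted p = 0.0795) and Rgs2 at 0.15 (adjusted p = 0.178).

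None of the synaptic genes was called by limma, where 0.919% of all loci were, so that a count of 0 is near the background for lists of this size. Of 40 glutamate receptor and postsynaptic density genes 24 were below 0 (median -0.054). At an unadjusted p below 0.05, 8 were lower and 2 higher, against 9.71% and 8.31% of all protein-coding loci. The calcium-dependent kinase subunits Camk2a and Camk2b, central to synaptic plasticity, differed by -0.39 (adjusted p = 0.0594) and -0.33 (adjusted p = 0.0688). Camk2a stood at 103, 87.8, 88.9 and 106 against 115, 135, 120.0 and 135 FPKM, without overlap. The kainate receptor subunit Grik5 differed by -0.90 (adjusted p = 0.0885), with overlapping groups. Presynaptic release genes had a median of -0.024 over 41 genes, 2 higher and 7 lower at an unadjusted p below 0.05, with Syt7 at -0.22 (adjusted p = 0.0686), Syp at -0.22 (adjusted p = 0.0733) and the vesicular glutamate transporter Slc17a7 at 0.47 (adjusted p = 0.0810). The GABA system had a median of 0.057 over 31 genes, 7 higher and 2 lower at an unadjusted p below 0.05. Its neuropeptide Npy stood at 66.5, 64.5, 76.1 and 123 against 126, 141, 116 and 176 FPKM (-0.78, adjusted p = 0.0904). The neuropeptide Cck differed by 0.28 (adjusted p = 0.0976).

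Of 37 RNA-binding splicing regulators 24 were below 0, with a median of -0.044, 10 lower and 2 higher at an unadjusted p below 0.05. Luc7l3, Srrm2 and Tra2a, all linked to splice site choice, differed by -0.35, -0.26 and -0.33, and their adjusted p was 0.0591 each. Chaperones and heat shock genes had a median of -0.027 over 48 genes, 2 higher and 6 lower at an unadjusted p below 0.05. The 1 call among them was Dnajb4, a cochaperone of HSP70, at 7.16 ± 1.02 against 10.8 ± 0.290 FPKM (SD, n = 4 each; -0.54, adjusted p = 0.0421). Its locus is listed at chr3:152208470-152208981, and whether that covers the whole gene was not tested. Hspa8, the constitutive HSP70, differed by 0.15 (adjusted p = 0.117), and the chaperonin subunit Cct8 by -0.17 (adjusted p = 0.141).

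**Figure D5:**
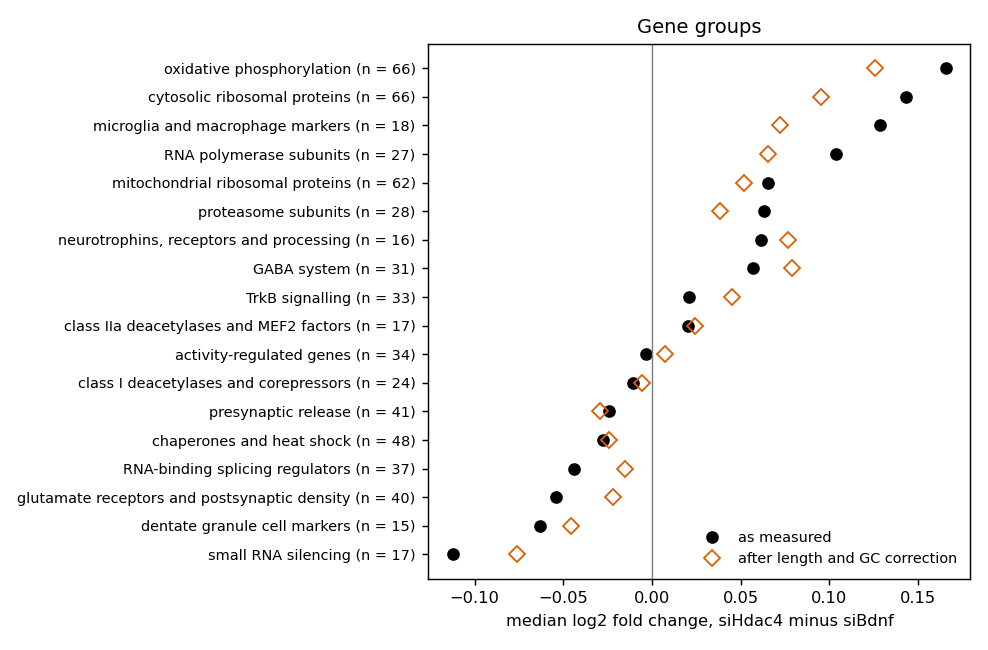
Median log2 difference of 18 gene groups, siHdac4 minus siBdnf, as measured (filled points) and after correction for transcript length and GC content (open diamonds), with the number of genes tested. In some groups the corrected median covers fewer genes than were tested. Oxidative phosphorylation is at 0.17 as measured and 0.13 corrected, and small RNA silencing at -0.11 and -0.076.

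Of 8 genes called earlier in comparisons of these groups with siScramble, none was called by limma between siHdac4 and siBdnf. At an unadjusted p below 0.05 there were 6, 3 in each direction, where 21.6% of all loci tested lay below that p. The 8 genes had been chosen on values of these same libraries, which favours a low p here. Their number is therefore a description and no separate evidence of a difference. Ikzf4, a zinc finger transcription factor, stood at 1.09, 1.23, 1.31 and 1.4997 against 1.95, 2.02, 1.82 and 1.81 FPKM (-0.35, adjusted p = 0.0617). Polr2f, which RNA polymerases I, II and III have in common, stood at 69.7, 53.2, 82.7 and 68.0 against 52.9, 30.7, 44.9 and 37.2 FPKM (0.72, adjusted p = 0.0753). For both genes the groups did not overlap, by a narrow margin in Polr2f. Hfe (-0.32), Zfp69 (-0.31), Wasf1 (0.27), Cfap52 (0.19), Lgals3bp (-0.22) and Cpd (0.19) had adjusted p from 0.109 to 0.366.

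Markers of hippocampal cells were present in all 8 libraries, including Prox1 of dentate granule cells (8.53 to 12.5 FPKM) and Wfs1 of CA1 (10.3 to 18.1 FPKM). Dentate granule markers had a median of -0.063 over 15 genes with 3 lower, and microglial markers 0.13 over 18 genes with 3 higher, at an unadjusted p below 0.05. Of all protein-coding loci, 9.71% were lower and 8.31% higher at that p. Neither list held a call. The smallest p belonged to Dsp (-0.25), Stxbp6 (-0.32) and Plk5 (-0.38) of the dentate list and to Csf1r (0.17), Tmem119 (0.23) and C1qb (0.20) of the microglial list, with adjusted p from 0.116 to 0.180. The summed level of 20 choroid plexus markers ran from 74.0 to 153 FPKM in siHdac4 and from 79.5 to 184 FPKM in siBdnf, while siScramble libraries 1 and 3 reached 1131 and 2904 FPKM. Kcne2, a potassium channel subunit of the choroid plexus, was at most 0.723 FPKM in all 8 libraries compared. In bulk tissue, fewer cells of a type and less RNA per cell cannot be told apart.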

How the data were processed

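The authors deposited 2 tables of FPKM values per locus and library, one for siHdac4 and one for siBdnf, each beside the same siScramble columns. The authors also deposited a log2 fold change, a p-value and an FDR per locus against siScramble, which were not used here. Per the labels' protocols, TRIzol-extracted RNA went into directional libraries after poly-A selection. Per the submitters' processing notes, TopHat2 2.0.9, Cufflinks and Cuffdiff were used. The build and annotation are not given in the sources used here. Coordinates are as deposited, and 98.7% of 11339 protein-coding loci overlapped the GENCODE M21 gene (GRCm38) of the same name.

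The tables were joined on the locus identifier. FPKM is not a count, so limma 3.58.1 (R 4.3.3), with a trended prior variance and no covariate, was run on log2(FPKM + 1) of the 8 libraries. This scale understates changes at low level. Depth in reads is unknown. The targets were also tested by exact permutation with scipy 1.17.1. Python 3.11.15, pandas 2.3.3, numpy 2.4.6 and matplotlib 3.10.9 were used. Named are both targets, the 10 loci of smallest adjusted p in each direction, and the 3 genes of smallest p in each of 18 lists. Some results that this rule selects are not reported here. Genes outside this rule are said to be chosen after their values were seen. The members and lists were chosen with earlier results of these data known. Transcript length and GC content, known for 93.8% of protein-coding loci, came from the longest GENCODE transcript. On simulated data for this comparison with 18285 loci, 50 loci were moved at each log2 size. The fit recovered 54% at 0.5, 88% at 1, 96% at 2 and 100% at 4, and made 7 false calls. The simulated noise was drawn independently for each locus and library. It held no shift shared between loci, so the 7 false calls are no estimate for the measured libraries. Alternatives were other pseudocounts, filters, scalings, prior variances, library weights, thresholds, a replicate block, all 12 libraries and leaving out each library. The length and GC correction was added after seeing the data.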

Additional observations from a re-analysis of the deposited data

Results flagged for a closer look

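In 60 groups of 4 libraries, over 30 genes and loci named, 4 held a library far from the other 3, and chance flags about 1 group in 20. In siBdnf, library 3 stood at 16.9 FPKM for the intronic Pde4b locus, below the others. In siHdac4, library 3 stood at 104 FPKM for Pop5 (104.5 to 1 decimal), below the others. For Zfp69, library 1 was the lowest siHdac4 library at 0.813 FPKM and library 1 was the highest siBdnf library at 1.96 FPKM.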

How the results depend on the processing

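The 168 calls became 390 at a minimum of 5 FPKM, 60 with protein-coding loci only, 1 with all 12 libraries, 74 with an untrended prior variance, 462 with library weights and 1194 at a threshold of 0.1. Leaving out 1 library gave 3 to 1130 calls. With the length and GC correction, added after seeing the data and fitted at protein-coding loci only, there were 68 calls, 51 of them among the 54 main calls in that fit. Counts from 135 to 202 came from the other pseudocounts, filters and scalings. The 3949 loci at an unadjusted p below 0.05 became 2133 with protein-coding loci only and 2031 with the correction, where fewer loci were tested. Hdac4 changed sign with library weights (-0.014, adjusted p = 0.957), without siHdac4 library 2 (-0.051, adjusted p = 0.823) and without siBdnf library 1 (-0.021, adjusted p = 0.940). Leaving out 1 library put it between -0.051 and 0.11, and its direction is not resolved. Quantile normalization put the oxidative phosphorylation median at 0.25. The cause of these changes was not tested.

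The main fit did not pair libraries by replicate number. Deviations of same-numbered libraries correlated at -0.042, -0.035, 0.058 and 0.13, and those of differently numbered libraries at -0.12 to 0.090. These correlations cannot exclude a pairing. A replicate block gave 211 calls, 94 of them among the 168. The tables hold no read totals, which limits statements on loci near 1 FPKM.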

Other observations

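Other gene groups, listed with earlier results known, held no locus called by limma between siHdac4 and siBdnf. Of 14 glucocorticoid-responsive genes 11 were below 0 in siHdac4 relative to siBdnf, with a median log2 difference of -0.070 and 1 higher at an unadjusted p below 0.05. Of 20 circadian clock genes 14 were below 0 (median -0.046), 2 higher and 2 lower at that p. Interferon-stimulated genes had a median of -0.064 over 18 genes, with 1 higher and 0 lower. Astrocyte markers stood at -0.0045 over 19 genes and oligodendrocyte lineage markers at -0.019 over 22, with 0 higher and 2 and 3 lower.

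Among called loci not described above, chosen after their values were seen, Gpx4, an enzyme that reduces lipid hydroperoxides, stood at 36.8 ± 5.71 against 21.8 ± 1.58 FPKM (SD, n = 4 each; limma adjusted p = 0.0363). Adam10, a protease that sheds the ectodomain of the amyloid precursor protein, stood at 18.8 ± 1.17 against 13.9 ± 0.704 FPKM (SD, n = 4 each; limma adjusted p = 0.0351). The locus Mir6236 stood at 27.4, 22.6, 30.5 and 42.9 FPKM in siHdac4 and at 65.7, 177, 94.6 and 114 FPKM in siBdnf, a log2 difference of -1.78 (limma adjusted p = 0.0408). Its siScramble values ran from 26.2 FPKM in library 1 to 613 FPKM in library 3.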
